A study of Mus musculus with 2 samples.

Results

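The cells described here are macrophages of the injured neonatal mouse heart that carry transcripts of Fcrls, Gpr34 and Olfml3 and few or none of Folr2, Cd163 and Fcna. They were chosen by unique molecular identifier (UMI) counts, where 1 UMI stands for 1 captured RNA molecule. A member is a barcode with at least 1000 genes, at most 10% mitochondrial UMIs and at least 10 UMIs of C1qa, C1qb and C1qc per 10000. It also has at least 5 UMIs of Olfml3, Fcrls and Gpr34 together and fewer than 5 of Folr2, Cd163 and Fcna together. Further limits were fewer than 5 UMIs of Ccr2, fewer than 5 of Prg4, fewer than 3 of Mki67 and Top2a, and fewer than 3 of Cd207 and Clec4f. There were 338 members among 10998 deposited barcodes, 239 in the WT library and 99 in the Lyve1 KO library.

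Both libraries were made from CD45+ cells sorted as live by exclusion of 7-AAD. The hearts had been infarcted at postnatal day 2 and were collected after 7 days, when the pups were 9 days old. The hearts of the WT library carried no stated modification, and the strain is not given in the labels. The hearts of the other library were Lyve1 knockout in every cell, so a difference may begin in any cell type and before the injury. Each library pooled 5 hearts, without atria, and each genotype has 1 library. The study assigned cells to single hearts from the reads, which was not done here. Each library was therefore a single sample and no test between genotypes was made, and genotype cannot be told apart from library, sort or pool, nor from a strain background that may differ between the WT and KO hearts. All intervals given are 95% intervals that cover counting error only.

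As background, long-lived resident macrophages of the heart are seeded before birth and are largely independent of blood monocytes. Fcrls (an Fc receptor-like scavenger receptor), Gpr34 (a lysophosphatidylserine receptor) and Olfml3 (a secreted olfactomedin-like protein) are best known from microglia, where signalling by TGF-beta maintains them. Cx3cr1, the fractalkine receptor, is also high in microglia and in several resident macrophages. LYVE-1, the hyaluronan receptor that is missing in the KO, marks a different resident set that lies along vessels and usually also carries Folr2, Timd4 and Cd163.

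The WT library held 5713 barcodes with 67968938 UMIs and the KO library 5285 barcodes with 61555917 UMIs. The limits on genes and mitochondrial UMIs were met by 3380 WT barcodes (59.2%) and 2769 KO barcodes (52.4%), and C1q genes were at the required level in 1409 and 608 of them. Members held 4674984 UMIs in WT, with a median of 18730 per cell, and 2031069 UMIs in KO, with a median of 19839. Median genes per member were 4484 and 4562. The libraries shared 9 barcode sequences, of which 0 were members. The 3 required genes had together a median of 23 UMIs per WT member (range 5 to 91) and 24 per KO member (range 6 to 86). Fcrls supplied 78.0% of these UMIs in WT and 77.6% in KO, Gpr34 13.6% and 11.8%, and Olfml3 8.42% and 10.6%. All 3 genes were seen in 120 WT members (50.2%) and 53 KO members (53.5%). Members without any UMI of Folr2, Cd163 and Fcna numbered 137 in WT (57.3%) and 49 in KO (49.5%).

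**Figure D1:**
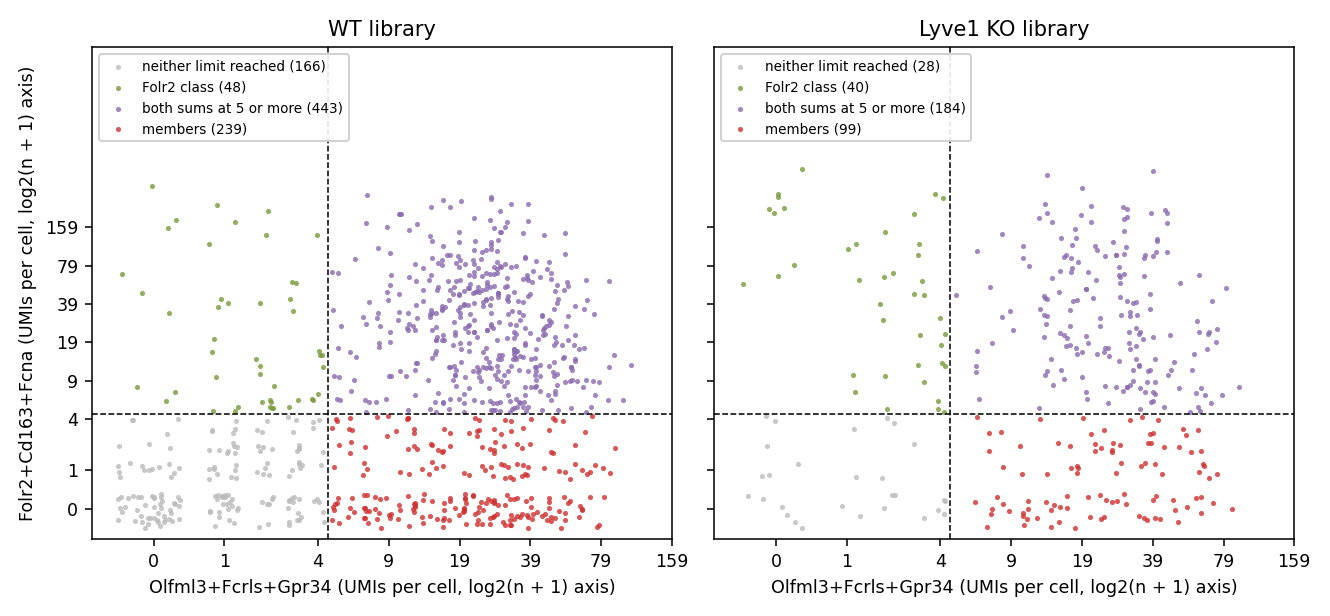
Macrophages within the other limits, each point 1 cell, by UMIs of Olfml3, Fcrls and Gpr34 together (x axis) and of Folr2, Cd163 and Fcna together (y axis), in the WT and KO libraries, on log2(n + 1) axes with points spread slightly at random and dashed lines between 4 and 5 UMIs. Members fill the lower right, 239 in WT and 99 in KO, and the cells above them (443 in WT and 184 in KO) carry both sets of genes.

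The limit on Folr2, Cd163 and Fcna divided a continuous population. Among C1q barcodes with the required genes (1045 in WT, 74.2%, and 433 in KO, 71.2%), 621 WT and 247 KO barcodes were at or over that limit. The limit on Ccr2 took 95 and 62, the limit on Mki67 and Top2a 260 and 87, the limit on Cd207 and Clec4f 44 and 11, and the limit on Prg4 0 and 0, where a barcode can be counted under several limits. With a sum of 4 UMIs for the Folr2 genes, just inside, there were 17 WT and 6 KO members, and with a sum of 5, just outside, 22 and 6 cells. Cx3cr1 was 1045 CPM (UMIs of the gene per 1000000 UMIs of the cells in question) in the former and 1127 CPM in the latter in WT, and 1065 and 1316 CPM in KO. With a sum of 5 for the required genes there were 12 WT and 0 KO members, and with a sum of 4, just outside, 10 and 4 cells. Cells with a sum of 4 for the required genes were shallow, with a median of 4813 UMIs in WT and 6702 in KO. The cells that met every limit except the one on the Folr2 genes, called double-positive below, are the nearest neighbours of the members: 443 in WT and 184 in KO.

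The 5 marker genes of the label were present in the members of both libraries. Fcrls and the other required genes describe the selection, while Cx3cr1 and Slamf9 were not part of it. Cx3cr1 was 1050 CPM in WT and 1155 in KO members, and 7.56 and 13.1 CPM in T and B cells of the same libraries. After thinning to 5000 UMIs, which left 231 WT and 97 KO members, Cx3cr1 had a UMI in 93.1% of WT and 92.8% of KO members (96.7% of WT and all 99 KO members without thinning). In T and B cells, which should lack it, the share after thinning was 1.88% in WT and 2.69% in KO, and their median depth had been 13750 and 14564 UMIs. Slamf9, a receptor of the SLAM family, was 299 CPM in WT and 204 in KO members, a log2 ratio of -0.53 on CPM + 10. Its CPM ratio was 0.681 (0.609–0.761), and its thinned share was 60.6% and 53.6%, against 2.81% and 4.03% in T and B cells. Neither gene was limited to members. Cx3cr1 was 694 and 642 CPM in double-positive cells and 532 and 451 CPM in CCR2 cells. CCR2 cells are C1q barcodes with at least 5 UMIs of Ccr2 and within the other limits, but with any count of the required genes. Slamf9 was 138.5 and 101 CPM in double-positive cells and 138 and 132 CPM in CCR2 cells. The log2 ratios of members over double-positive cells were 0.59 and 0.84 for Cx3cr1 and 1.06 and 0.95 for Slamf9, so neither was past 2-fold in both libraries. Macrophage genes were also present, with C1qa at 4357 and 4362 CPM, Csf1r, the receptor of CSF1, at 1520 and 1603 CPM, and Adgre1 (F4/80) at 749 and 891 CPM.

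Genes that mark microglia were present in part. Tmem119, a membrane protein used as a microglia marker, was 92.4 CPM in WT and 98.5 in KO members. P2ry12, a purinergic receptor, was 201 and 210 CPM. Sall1, a transcription factor of microglia, had 0 UMIs in both libraries. With 3 counts as the floor, 0 UMIs of 4674984 allow up to 0.642 CPM in WT and 0 of 2031069 up to 1.48 CPM in KO. Siglech had 21 UMIs in WT and 6 in KO.

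Members made up 17.0% of C1q barcodes in WT (15.04–19.03%) and 16.3% in KO (13.4–19.5%). These shares differed by -0.68 points (-4.09 to 2.98), within counting error. With the limits applied after thinning C1q barcodes to 10000 UMIs, the shares were 27.6% of 1154 in WT and 25.7% of 565 in KO, and 185 of these 318 WT and 85 of these 145 KO cells were members. Of all barcodes that met the quality limits they were 7.07% in WT (6.23–7.99%) and 3.58% in KO (2.92–4.34%), which differed by -3.50 points (-4.61 to -2.38). The C1q barcodes as a whole were fewer in KO, 608 against 1409, and T and B cells more, 1009 against 698, in sorted pools whose total is fixed. Among members and double-positive cells together, members were 35.0% of 682 cells in WT (31.5–38.8%) and 35.0% of 283 in KO (29.4–40.9%). The division of required-gene macrophages by the Folr2 genes therefore differed by -0.06 points (-6.52 to 6.64). CCR2 cells took 9.37% of C1q barcodes in WT and 16.8% in KO, and these differed by 7.41 points (4.20 to 10.9).

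Transcripts linked to sex split each pool into hearts of different animals. Male cells (Y-linked transcripts without Xist) were 175 of the WT and 51 of the KO members, and female cells (the reverse) 45 and 35. Of male C1q barcodes, members were 19.8% in WT and 15.7% in KO, differing by -4.03 points (-8.53 to 0.99). Of female C1q barcodes they were 12.4% and 14.6%, differing by 2.21 points (-3.25 to 8.08). Of all male quality barcodes the share was 9.33% and 3.72%, and of all female ones 4.89% and 3.86%. The lower share of members among all sorted cells in KO was thus largest among male cells, and among female cells the interval of the difference, -1.03 points (-2.95 to 0.87), holds 0. Otherwise qualifying cells with at least 3 UMIs of the cycle genes Mki67 and Top2a, which the rule leaves out, numbered 90 in WT and 27 in KO.

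Lyve1 (ENSMUSG00000030787; GRCm38 chromosome 7, 110850607 to 110863239, minus strand) was nearly absent from members even in WT. WT members held 50 UMIs of Lyve1 in 22 of 239 cells (10.7 CPM, 7.94–14.1), and KO members 3 UMIs in 2 of 99 cells (1.48 CPM, 0.30–4.32). The ratio of KO over WT was 0.138 (0.028–0.428), and the log2 ratio on CPM + 10 was -0.85. Double-positive cells had 881 CPM in WT and 31.7 CPM in KO. In WT, members were thus lower than double-positive cells by a log2 ratio of -5.43. After thinning, Lyve1 had a UMI in 3.90% of WT members and 56.0% of WT double-positive cells (9.21% of WT members without thinning). T and B cells, which should lack the transcript, had 0.605 CPM in WT and 8.80 CPM in KO, with thinned shares of 0.469% and 4.44%. The level in KO members was thus below that in KO T and B cells, and no expression is read from it. WT double-positive cells held 9919 UMIs of Lyve1, so most of the transcript that the knockout removed was in macrophages outside the selection.

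In WT, the Lyve1 level followed the count of the Folr2 genes in steps. These values describe the chosen cells and are no test, since the bins are cut on genes of the same cells. In WT, Lyve1 was 2.26 CPM in the 137 cells without Folr2, Cd163 or Fcna, 11.8 CPM at 1 to 2 UMIs of these genes, and 41.9 CPM at 3 to 4 UMIs, the last bin inside the limit. Beyond it Lyve1 was 63.6 CPM at 5 to 9 UMIs, 177 CPM at 10 to 19, 615 CPM at 20 to 39 and 1632 CPM in the 163 cells with 40 or more. In KO the same bins gave 0, 0, 9.38, 6.63, 26.03, 28.5 and 41.9 CPM. The KO values at 3 to 4 and at 5 to 9 UMIs rest on 3 and 5 UMIs of Lyve1 and lie close to the 8.80 CPM of KO T and B cells. Timd4, the phosphatidylserine receptor of long-lived resident macrophages, went from 4.15 CPM in the lowest to 170 CPM in the highest bin in WT and from 11.6 to 196 CPM in KO. Cbr2, a carbonyl reductase, went from 72.0 to 1999 CPM in WT and from 71.7 to 2071 CPM in KO, and F13a1, coagulation factor XIII A, from 276 to 3379 CPM and from 484 to 3774 CPM. For these 3 genes, unlike Lyve1, both libraries reached similar heights.

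Other genes ran the opposite way. Tmem119 was 104 CPM in the lowest and 6.34 CPM in the highest bin in WT, and 117 and 6.85 CPM in KO. Tgfbr1, the type I receptor for TGF-beta, was 316 and 65.6 CPM in WT and 292 and 54.4 CPM in KO. Cd72, a C-type lectin-like receptor, was 166 and 12.9 CPM in WT and 166 and 4.57 CPM in KO. P2ry12 had no such slope in WT, at 195 and 175 CPM, and was 193 and 145 CPM in KO. Csf1r was instead higher in the highest than in the lowest bin, going from 1480 to 1780 CPM in WT and from 1376 to 1863 CPM in KO. The bins also differ in depth, and a deep cell reaches a high count of the Folr2 genes more easily. Median UMIs per cell were 18546 in the lowest and 29563 in the highest bin in WT, and 19296 and 31272 in KO. The WT bin at 3 to 4 UMIs was the shallowest there, with a median of 17329. With the same cells binned by Folr2, Cd163 and Fcna per 10000 UMIs of the cell, the direction was the same. This did not take out depth in full, since the lowest bin still held the same 137 WT and 49 KO cells. Median UMIs were 18546 in the lowest and 25867 in the highest of these bins in WT, and 19296 and 29214 in KO. From cells without these genes to cells above 10 per 10000, Lyve1 then went from 2.26 to 1465 CPM in WT and from 0 to 38.9 CPM in KO. Tmem119 went from 104 to 9.21 CPM in WT and from 117 to 6.32 CPM in KO, and Tgfbr1 from 316 to 74.5 CPM and from 292 to 67.7 CPM.

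**Figure D2:**
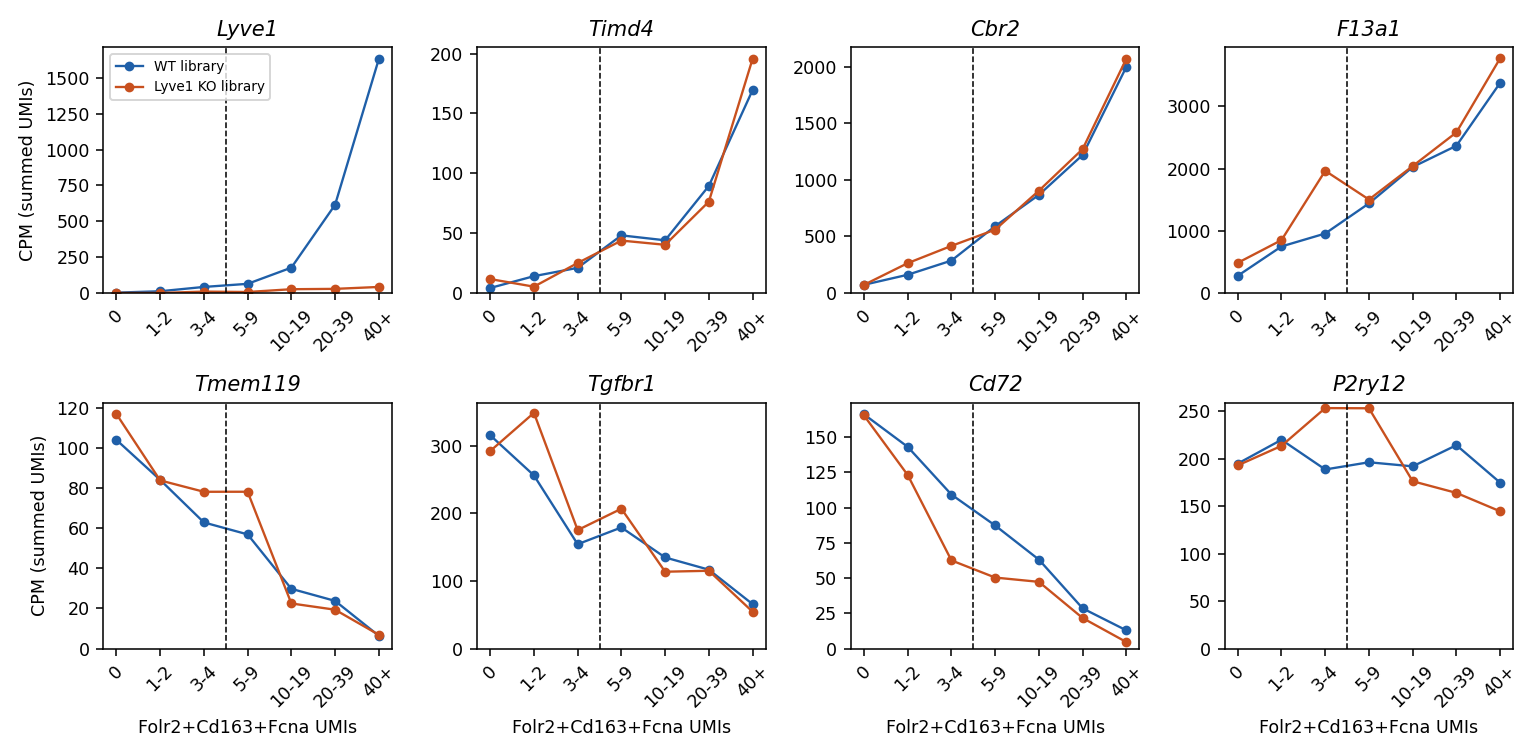
Level of 8 genes (CPM) in required-gene macrophages binned by UMIs of Folr2, Cd163 and Fcna (x axis), with 1 line for WT and 1 for KO and a dashed line at the limit of membership. In WT, Lyve1 runs from 2.26 to 1632 CPM and stays at or below 41.9 CPM in KO, while Timd4, Cbr2 and F13a1 climb and Tmem119, Tgfbr1 and Cd72 descend in both libraries.

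Against double-positive cells, members were at least 2-fold higher in both libraries for 52 of 9894 genes measured (0.526%) and at least 2-fold lower for 67 (0.677%). A gene counted as measured had at least 100 UMIs over the compared cells of both libraries, and folds were on CPM + 10. The selection itself divides these classes, so the lists describe the cells and nothing is read from their counts. Tmem119 (92.4 CPM in WT and 98.5 CPM in KO members, 22.7 and 22.1 CPM in double-positive cells) was among the higher genes. Mmp14, a membrane matrix metalloproteinase, was 85.4 and 118 CPM in members and 15.1 and 9.60 CPM in double-positive cells. F11r (JAM-A, a junctional adhesion molecule) was 101.0 and 98.0 CPM against 20.5 and 17.8 CPM. Rgs1, a regulator of G protein signalling, was 342 and 233 CPM against 62.8 and 60.7 CPM. Cd9, a tetraspanin, was 308 and 387 CPM against 112 and 77.6 CPM, and Axl, a receptor for apoptotic cells, 137 and 155 CPM against 49.98 and 38.98 CPM. In each of these genes the members of either library were above the double-positive cells of both.

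By lists, members were past 2-fold higher in both libraries for 4 of 7 MHC class II genes, among them Cd74, the invariant chain (622 and 598 CPM against 187 and 182 CPM), and H2-Aa (37.7 and 39.9 CPM against 4.17 and 4.11 CPM). The median log2 ratio of that list was 1.61 in WT and 1.32 in KO, beside 0.04 and 0.05 over all genes. Members were not the cells richest in these genes. The list summed to 912 CPM in WT and 893 CPM in KO members, and to 11940 and 12710 CPM in CCR2 cells. Against the smaller class with the Folr2 genes but few required genes, described below, 0 of 6 were past 2-fold higher in both libraries. The chains rested on 7 WT and 7 KO members with at least 5 UMIs, and in the rest H2-Aa was 3.33 and 5.99 CPM. In the TGF-beta pathway list Tgfbr1 was 1 of 13 past 2-fold (275 and 295 CPM against 108 and 97.2 CPM), while Tgfbr2 was 210 and 199.9 CPM against 226 and 236 CPM. Of 17 microglia-type genes, Tmem119 was the 1 past 2-fold higher and Ltc4s, the leukotriene C4 synthase, the 1 past 2-fold lower, and P2ry12 was 201 and 210 CPM against 189.8 and 169 CPM. The list of lipid and lysosome genes had 4 of 19 higher, with a median log2 ratio of -0.12 in WT and 0.15 in KO. These were Spp1, Gpnmb, Fabp5 and Cd9, and in WT the 5% of members highest in each held 70.8% of the Spp1, 96.2% of the Gpnmb and 74.2% of the Fabp5 UMIs. Macrophage transcription factors had 0 of 18 past 2-fold in either direction, with Spi1 (PU.1) at 627 and 600.2 CPM against 594 and 559 CPM.

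Among the genes lower in members were some of the Folr2-type, chemokine and complement lists. Of 18 Folr2-type resident genes, without those of the rule, 11 were past 2-fold lower in both libraries, with a median log2 ratio of -1.59 in WT and -1.82 in KO. Cd209f, a C-type lectin, had 0 UMIs in the members of both libraries and 69.2 and 122 CPM in double-positive cells. Ednrb, the endothelin receptor B, was 38.7 and 34.0 CPM in members against 497 and 679.5 CPM. P2rx7, the ATP-gated channel, was 121 and 144 CPM against 344 and 359 CPM. Gas6, the bridging ligand of Axl and Mertk, was 223 and 193 CPM against 639 and 539 CPM, so this ligand and Axl lay on opposite sides. Of 15 chemokine genes 8 were lower and 1, Cxcl16, was higher (438 and 412 CPM against 189.9 and 188 CPM). Ccl7 was 223 and 269 CPM against 854 and 889.7 CPM, and Ccl2, the main attractant of CCR2 monocytes, 382 and 358 CPM against 1091 and 991 CPM. Of 11 complement genes 3 were lower, among them properdin, Cfp (166 and 173 CPM against 352 and 376 CPM), while C1qa was 4357 and 4362 CPM against 4576 and 4705 CPM.

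A smaller class had the Folr2 genes at 5 UMIs or more and the required genes below 5, with 48 WT and 40 KO cells. Members were at least 2-fold higher than these cells in both libraries for 222 of 8011 genes measured (2.77%) and at least 2-fold lower for 209 (2.61%). Apart from the required genes, those furthest above, ranked by the lower of the ratios in WT and KO, were St3gal6, a sialyltransferase (158.9 and 152 CPM in members, 9.63 and 7.98 CPM in the Folr2 class), Cx3cr1 (1050 and 1155 CPM, 137 and 142 CPM) and Tmem119 (4.82 and 7.18 CPM in the Folr2 class). The tetraspanin Cd81 was 449.8 and 375 CPM in members and 35.7 and 51.9 CPM in the Folr2 class. Of the genes furthest below, Saa3, an acute-phase protein, was 0.856 and 0 CPM in members and 2111 and 2039 CPM in the Folr2 class. Fn1, fibronectin, was 96.5 and 157 CPM against 2124 and 2229 CPM. In double-positive cells Saa3 was 16.4 and 6.07 CPM and Fn1 54.2 and 22.9 CPM, so the classes that carry the Folr2 genes differed in both.

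Between the libraries, few genes of the members were past 2-fold apart. Of 7316 genes with at least 100 UMIs over the members of both libraries, 12 were at least 2-fold higher in KO (0.164%) and 17 at least 2-fold lower (0.232%). With 1 CPM added in place of 10 the counts were 22 and 36, with a minimum of 20 UMIs 22 of 10588 genes were higher, and the genes higher in KO were 5 of 6082 in male cells and 21 of 3103 in female cells. The median log2 ratio over all of them was -0.04. With 1 library per genotype these are values of 2 libraries and no test of the genotypes.

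**Figure D3:**
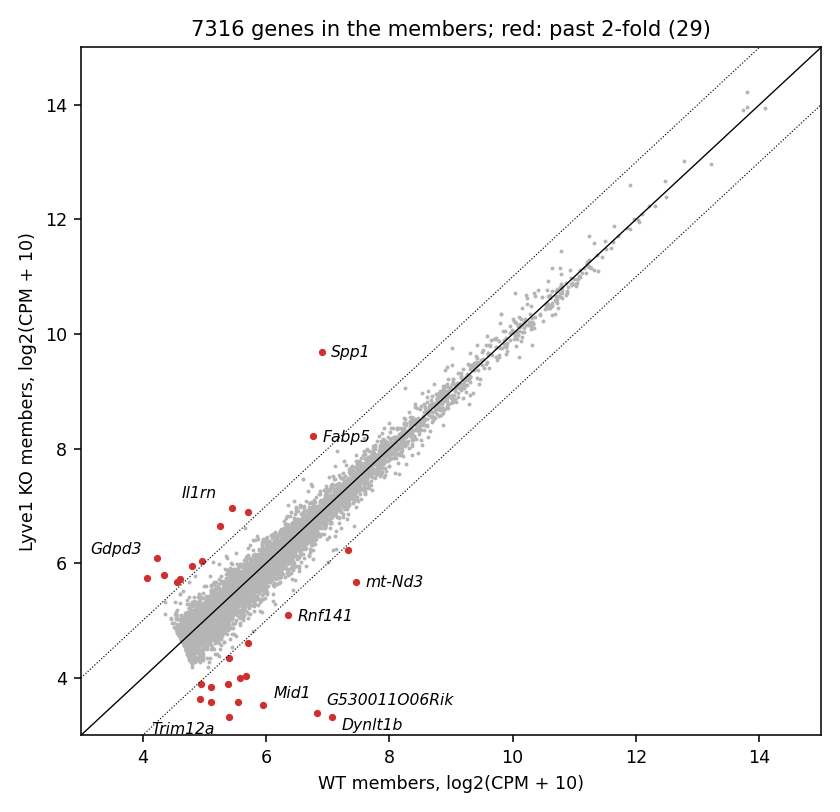
Each point is 1 of 7316 genes, at its level in WT members (x axis) and KO members (y axis), both as log2 of CPM + 10, with the 29 genes past 2-fold in red. Most genes lie along the diagonal, Spp1 stands highest above it, and Dynlt1b and G530011O06Rik lie at the floor of the KO axis.

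Spp1, which encodes the secreted matrix protein osteopontin, had the highest ratio. It was 109.7 CPM in WT members (100.4–119.7, 513 UMIs) and 819 CPM in KO members (779.9–859, 1663 UMIs), a ratio of 7.46 (6.75–8.25) and a log2 ratio of 2.79. The log2 ratio was 2.62 among male and 3.41 among female members. Few cells carried the transcript: 46 WT members (19.3%) and 33 KO members (33.3%) had a UMI, and after thinning 13.4% and 27.8%, against 0.625% and 0.207% of T and B cells. Members with at least 5 UMIs were 25 in WT (10.5%, 6.89–15.1%) and 23 in KO (23.2%, 15.3–32.8%). The 5% of members highest in Spp1 (12 WT and 5 KO cells) held 70.8% of its UMIs in WT and 63.9% in KO, and without them the levels were 34.4 and 315 CPM. The same gene was 37.9 and 35.5 CPM in double-positive cells and 230 and 1551 CPM in CCR2 cells, while T and B cells had 0.982 and 10.8 CPM. A higher Spp1 level in the KO library was therefore found in members and in CCR2 cells and not in the nearest neighbours of the members. T and B cells were also higher in KO, at a far lower level, with a log2 ratio of 0.92.

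Fabp5 and Gpnmb were, with Spp1, the genes of the lipid and lysosome list past 2-fold higher. Fabp5, a fatty acid-binding protein, was 98.6 CPM in WT and 287 in KO members, a log2 ratio of 1.45. The highest 5% of members held 74.2% of its UMIs in WT and 80.3% in KO, and without them it was 27.7 and 60.6 CPM, a log2 ratio of 0.90. Gpnmb, a lysosomal membrane glycoprotein, was 28.2 and 91.1 CPM, a log2 ratio of 1.40. It too rested on few cells: 5 KO members held 93.0% of its UMIs there, and among female members the ratio had the opposite sign, -0.23. Gdpd3, a lysophospholipase D, was 8.77 and 58.1 CPM, with a UMI in 34 of 239 WT and 50 of 99 KO members. It was the evenest of the higher genes over cells, and it was also higher in KO double-positive, CCR2 and T and B cells, by log2 ratios of 1.03, 1.35 and 1.07. Il1rn, the interleukin-1 receptor antagonist, was 33.8 and 115 CPM, with a log2 ratio of 0.35 in male and 3.24 in female members. Vcam1, an adhesion molecule, was 42.4 and 109.3 CPM, a log2 ratio of 1.19. It was past 2-fold in 9 of 12 alternatives, and 0.69 with the rule applied after thinning to 10000 UMIs. In double-positive cells Fabp5, Gpnmb, Il1rn and Vcam1 had log2 ratios of -0.39, -0.22, -0.12 and -0.43. In CCR2 cells the ratios of these genes were 0.59, 0.998, 1.55 and 0.12. Itgax (CD11c), below the minimum of 100 UMIs, was 4.06 and 38.4 CPM, in 8 WT and 15 KO cells.

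The rest of the 12 were carried by few cells. Ifit2, an interferon-induced gene, was 6.85 and 43.3 CPM, but 1 KO cell held 63 of its 88 KO UMIs, and the log2 ratio was 0.04 in female members. St18, a zinc finger transcription factor, was 10.3 and 45.3 CPM, in 15 WT and 14 KO cells. Aspa had a UMI in 8 KO cells, Clec4e in 5, Plac8 in 3 and Igkv19-93 in 1. Just below the 2-fold line stood Ptprm, a receptor tyrosine phosphatase (10.5 and 30.03 CPM), and Acp5, tartrate-resistant acid phosphatase (40.9 and 87.6 CPM).

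**Figure D4:**
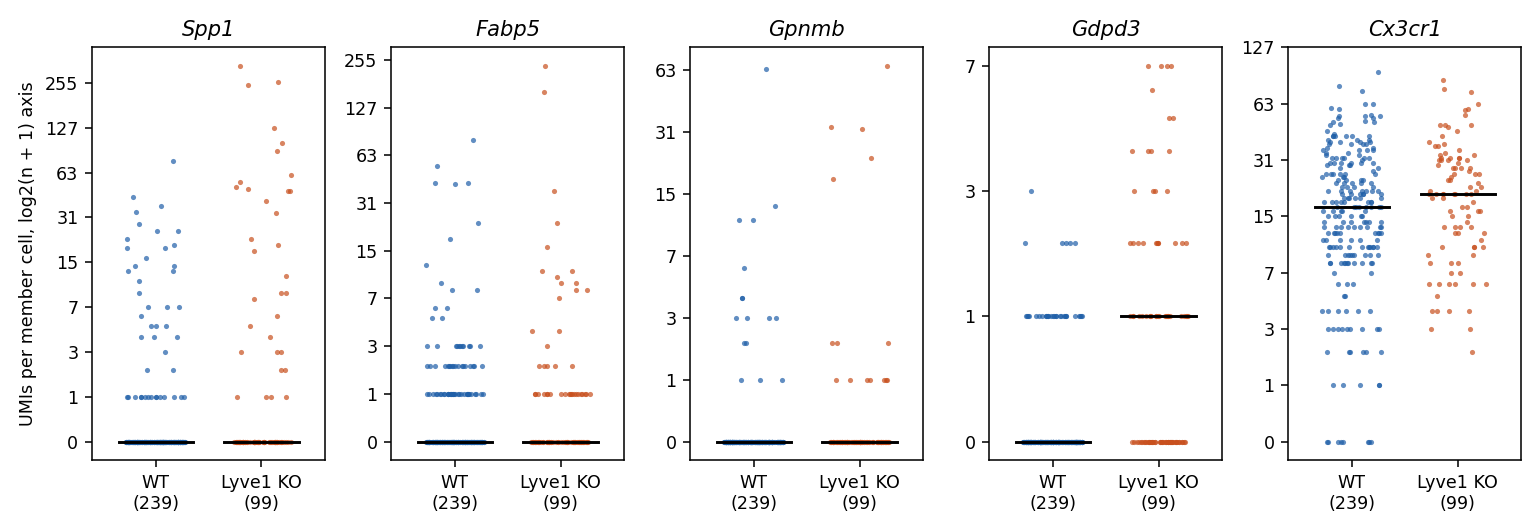
UMIs per cell of Spp1, Fabp5, Gpnmb, Gdpd3 and Cx3cr1 in the 239 WT and 99 KO members, each point 1 cell on a log2(n + 1) axis, with a bar at the median. For Spp1, Fabp5 and Gpnmb the median is 0 in both libraries and a tail of cells carries the UMIs, up to 331 UMIs of Spp1 in 1 KO cell, while nearly every member carries Cx3cr1.

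The Spp1 cells were looked at by themselves, in a split chosen after the values had been seen. Members with at least 5 UMIs of Spp1 were compared with the rest of the same library. Gpnmb was 181 CPM in these 25 WT cells and 2.99 CPM in the other 214, and 340.0 CPM in the 23 KO cells and 2.67 CPM in the other 76. Fabp5 was 359 against 55.6 CPM in WT and 1020 against 26.7 CPM in KO. Lgals3, galectin-3, was 774 against 215 CPM and 1471 against 191 CPM. Ctsd, the lysosomal protease cathepsin D, was 1706 against 908 CPM and 2081 against 913 CPM. Cx3cr1, the gene of the label in this split that the rule does not use, was lower in the Spp1 cells but present. It was 812 against 1089 CPM in WT and 672 against 1326 CPM in KO. Fcrls was 727 against 1131 CPM in WT and 761 against 1244 CPM in KO. The rule requires Fcrls, Gpr34 and Olfml3 together, so nothing is read from the presence of Fcrls. Tmem119 was 45.3 against 100.2 CPM and 71.4 against 108 CPM. Ly6c2, a gene of classical monocytes, had 0 UMIs in all members, and Ccr2, which the rule holds below 5 UMIs per cell, was 21.1 against 12.96 CPM in WT and 20.7 against 10.0 CPM in KO. Spp1 cells were 19 male and 4 female in WT, and 11 male and 9 female in KO, so they came from more than 1 heart in each pool.

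Some of the lowest genes were low in other cell classes of the KO library as well. Dynlt1b (GRCm38 chromosome 17), a dynein light chain, was 125 CPM in WT, with a UMI in 190 of 239 members, and had 0 UMIs in KO. With the floor of 3 counts, 1.48 CPM, WT was at least 84.4-fold higher. Its near-identical copies had log2 ratios of -0.16 for Dynlt1a, -0.04 for Dynlt1c and -0.01 for Dynlt1f. How reads are shared out among such copies may leave the value of any one of them uncertain, which was not tested. G530011O06Rik, on chromosome X, was 103.5 CPM in WT and 0.492 in KO. Mid1, a ubiquitin ligase on the same chromosome, was 52.2 and 1.48 CPM. The mitochondrial transcript mt-Nd3 was 165 and 41.4 CPM, with log2 ratios of -1.77 in members and -1.32, -1.62 and -1.71 in double-positive, CCR2 and T and B cells. Hbb-bs, a haemoglobin chain of red cells, was 31.7 and 4.92 CPM, with log2 ratios of -1.48 in members and -1.35, -1.34 and -1.62 in the same 3 classes. Dynlt1b, mt-Nd3 and Hbb-bs were thus past 2-fold lower in KO in each of these classes, while in T and B cells G530011O06Rik had a log2 ratio of -0.01 and Mid1 of -0.93.

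Some of the low genes lie on chromosome 7 with Lyve1. Rnf141, a ring finger protein that starts 0.0502 Mb from the start of Lyve1, was 71.7 CPM in WT and 24.1 in KO members. Its log2 ratio was -1.26 in members, -1.46 in double-positive cells, -1.25 in CCR2 cells and -0.14 in T and B cells. Trim12a (104299894 to 104315466, 6.55 Mb from Lyve1) was 32.3 and 0 CPM (at least 21.9-fold higher in WT by the same floor) and Trim30d 41.1 and 6.40 CPM, with log2 ratios past 2-fold in each of the 4 classes. Both belong to a family of like genes, so shared reads may leave the single values uncertain, which was not tested. Of the 11 measured genes in the list of the Lyve1 neighbourhood, 3 were past 2-fold lower (Rnf141, Trim12a and Trim30d), beside 0.232% of all genes. The list was chosen with earlier results of these data known. It also reaches to genes such as Trim30d, 6.38 Mb from Lyve1, so nothing is read from this count. Gdpd3, 15.9 Mb away, was the gene past 2-fold higher on the same chromosome, and Hbb-bs lies 7.02 Mb from Lyve1.

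Of the remaining low genes some rested on few cells. Areg, the growth factor amphiregulin, was 36.8 and 1.97 CPM, but in 7 WT and 3 KO cells. Ccl8 was 20.5 and 2.46 CPM, in 9 and 4 cells, with the opposite sign in female members (0.34). Gem, a small GTPase, was 37.9 and 5.91 CPM, in 24 and 6 cells, and Mmp13, a collagenase, 42.6 and 14.3 CPM, in 27 and 10. Others were seen in more cells. Raly, an RNA-binding protein, was 150.2 and 65.0 CPM, with a UMI in 204 WT and 71 KO members. Zbtb16 (PLZF), a transcription factor, was 20.8 and 4.92 CPM, and Pcbd2 32.1 and 10.3 CPM. Gm47283, annotated on chromosome Y, was 24.4 and 4.43 CPM. Male cells were 73.2% of WT and 51.5% of KO members, and their part in this value was not tested. Gm15726 lies on chromosome X.

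**Figure D5:**
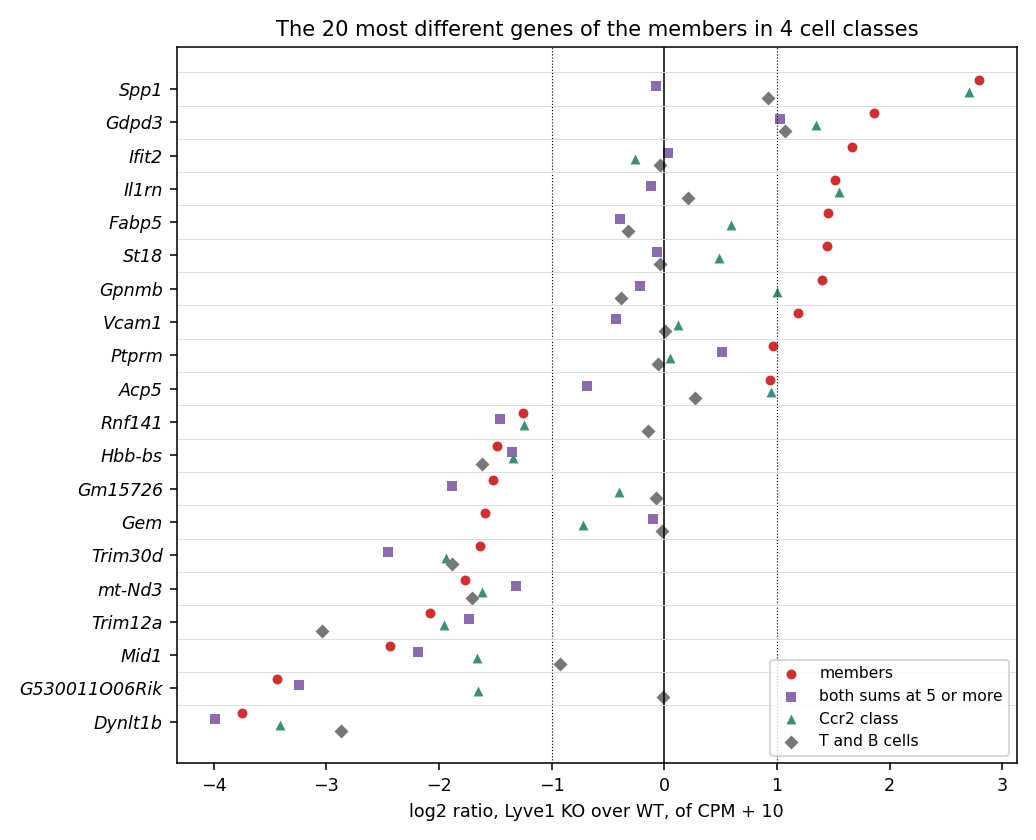
Log2 ratio of KO over WT (CPM + 10) of the 10 highest and 10 lowest genes of the members, in members, double-positive cells, CCR2 cells, and T and B cells. Dynlt1b, Trim12a, Trim30d, mt-Nd3 and Hbb-bs are past 2-fold lower in all 4 classes and Gdpd3 past 2-fold higher, while Spp1 is past 2-fold in members (2.79) and CCR2 cells (2.70) and at -0.08 in double-positive cells.

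Pathway lists gave few genes past 2-fold between KO and WT members, beside 0.164% higher and 0.232% lower of all genes. The list of lipid and lysosome genes had 3 of 19 higher (Spp1, Fabp5 and Gpnmb) and a median log2 ratio of 0.25, beside -0.04 for all genes, and cathepsin D was 1021 and 1219 CPM. DNA replication genes had 0 of 13 past 2-fold and a median of -0.49, with Mcm2 at 27.6 and 10.8 CPM and Mcm5 at 33.8 and 13.3 CPM, both subunits of the replicative helicase. The median of the list was -0.39 among male and -0.76 among female members. Mcm2 had log2 ratios of -0.53 among male and -1.82 among female members, and Mcm5 of -0.44 and -2.07. In double-positive cells Mcm2 was 26.2 and 11.2 CPM. Pcna, the replication clamp of the same list, was 140.1 and 143 CPM. Chemokines had 1 of 14 past 2-fold, Ccl8, with Ccl2 at 382 and 358 CPM, and growth factors 1 of 13, Areg, with Igf1, insulin-like growth factor 1, at 469.5 and 652 CPM. The log2 ratio of Igf1 was 0.15 among male and 1.30 among female members. Folr2-type resident genes had 1 of 13 past 2-fold, again Ccl8, and a median of 0.02. Within 2-fold of that list were Timd4 at 9.41 and 11.3 CPM, Cbr2 at 128 and 198 CPM and F13a1 at 509.7 and 854 CPM. Interferon-stimulated genes had 1 of 12, Ifit2, and the median of the list was 0.30 among male and -0.95 among female members.

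None of the other function lists had a gene past 2-fold between KO and WT members. These were microglia-type genes (0 of 14, median log2 ratio 0.08), the TGF-beta pathway (0 of 13, -0.06), the CSF1 receptor axis (0 of 4, 0.07), transcription factors (0 of 17, -0.02), efferocytosis (0 of 14, 0.09), macrophage markers (0 of 9, 0.02), hyaluronan receptors and enzymes (0 of 5, 0.13), purinergic and lysophospholipid receptors (0 of 7, 0.14), complement (0 of 11, 0.04), MHC class II (0 of 6, 0.01) and apoptosis (0 of 25, -0.02). Inflammatory genes of the NF-kB type had 0 of 14, with Il1b, interleukin-1 beta, at 411 and 552 CPM and Tnf at 319 and 254.5 CPM. Immediate early genes had 0 of 20, with Fos at 2630 and 2637 CPM. No gene of mitosis was measured, as the rule limits cycling cells, and the 16 genes of that list summed to 56.9 and 52.7 CPM. Cd44, the main hyaluronan receptor besides LYVE-1, was 333 CPM in WT and 415 in KO members, a ratio of 1.25 (1.14–1.36), and its log2 ratio was 0.57 among male and -0.19 among female members. Stab1, a scavenger receptor that also binds hyaluronan, was 661 and 699.6 CPM. The class II value rests on few cells: with a required sum of at least 3 UMIs the median of the list was -0.93, with H2-Aa at a log2 ratio of -1.69, while without the 5% of members highest in each gene H2-Aa was at 0.72. A value within 2-fold does not show that the genotypes act alike.

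After thinning to 5000 UMIs, the median variance-to-mean ratio over cells was 1.40 in both libraries for 1577 genes with a mean of at least 0.5 UMIs in each. Ranked by the lower of both libraries, the 3 highest ratios were those of Gm42418, Cmss1 and AY036118, which can collect ribosomal RNA. Cxcl2, an attractant of neutrophils, came next and had a ratio of 23.4 in WT and 36.3 in KO. It had 0 UMIs in 60.6% and 61.9% of the thinned cells and up to 103 and 101 UMIs in 1 cell. Ccl4 had ratios of 22.7 and 35.4, Apoe, apolipoprotein E, 20.2 and 26.3, Cd74 33.1 and 18.3, and the heat shock gene Hspa1a 17.5 and 17.3. Before thinning, at least 10 UMIs of Cxcl2 were found in 33.5% of WT and 32.3% of KO members, and of Ccl4 in 25.5% and 27.3%. Malat1 and Fth1 were also among the 10 highest.

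The chains of MHC class II were carried by a small tail of cells. H2-Aa, H2-Ab1 and H2-Eb1, which present antigen to T cells, had together a UMI in 36 WT members (15.1%) and 19 KO members (19.2%). At least 5 UMIs were found in 7 WT members (2.93%, 1.19–5.94%) and 7 KO members (7.07%, 2.89–14.03%). The 5% of members highest in these genes held 93.0% of their UMIs in WT and 75.6% in KO. Cd74 was 6831 CPM in the 7 WT cells and 384 CPM in the rest, and 3966 and 242 CPM in KO. Cd74 in the members with fewer than 5 UMIs of the chains was thus above the 187 and 182 CPM of double-positive cells.

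Markers of other cell types were also seen in members, and their part in the results was not tested. The 10 monocyte genes summed to 259.5 CPM in WT and 407 CPM in KO, led by Fn1 (96.5 CPM) in WT and Thbs1 (167 CPM) in KO, with Ly6c2 at 0 in both libraries and Vcan and Chil3 also at 0 in KO. The sum was higher in KO, as were Spp1 and Fabp5. The 6 B cell genes summed to 306 and 306 CPM, of which Ighm made up 219 and 214 CPM and was seen in 74.9% and 65.7% of members. The B cell sum was 177.5 and 208 CPM in double-positive cells and 44.3 and 46.3 CPM in the Folr2 class. The 7 T cell genes summed to 17.1 and 0.985 CPM, with 70 of the 80 WT UMIs in 1 cell. The 15 cardiomyocyte genes summed to 129 and 119 CPM, led by Nppa in WT, where 1 cell held 85 of its 94 UMIs, and by Actc1 in KO (22.7 CPM). The 10 neutrophil genes summed to 62.5 and 67.0 CPM, mostly Csf3r, with Ly6g, Lcn2 and Camp at 0. The 7 dendritic cell genes summed to 10.3 and 20.2 CPM with Flt3 at 0, and the 8 fibroblast genes to 18.8 and 22.7 CPM with Pdgfra at 0. Endothelial genes summed to 19.9 and 26.6 CPM, led by Pecam1, and lymphatic endothelial genes to 4.06 and 2.95 CPM, led by Prox1. The 6 erythroid genes summed to 42.6 and 6.40 CPM, led by Hbb-bs. The sum was thus lower in KO, like the single gene Hbb-bs above.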

How the data were processed

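The authors deposited raw UMI counts per gene and barcode, made with Cell Ranger 8.0.1 (per the labels) on mm10/GRCm38, for barcodes called as cells, without normalization. The libraries were 10x Genomics GEM-X 5′ v3, 1 per genotype. The study assigned cells to hearts from variants in the reads and so removed doublets. That step was not analysed here, and no doublets were removed from the main values. Scrublet scores (scanpy 1.11.5) were used in an alternative, where the 0.4% per 1000 barcodes with the highest scores were left out (131 WT and 112 KO barcodes, of them 3 and 1 members).

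Counts were summed per library and class and scaled to CPM. Log2 ratios used CPM + 10 and genes with at least 100 UMIs. Intervals are exact Poisson for levels, exact binomial for ratios, Clopper-Pearson for shares and Newcombe for differences of shares. Cells were thinned to 5000 UMIs for shares with a UMI. T and B cells had C1q genes below 10 per 10000 UMIs and at least 3 UMIs of Cd3d, Cd3e and Cd3g or at least 5 of Cd79a and Cd79b. Python 3.11.15, numpy 2.4.6, scipy 1.17.1 and pandas 2.3.3 were used, and gene positions are those of a GRCm38 annotation. The ratio step was tested on simulated data.

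The members, the lists and most alternatives were chosen with earlier results of these data known. Double-positive cells, the split by Spp1 or MHC class II and the alternative without the highest 5% of cells were added after the values had been seen. Named genes are those of the fixed lists, the 10 highest and 10 lowest ratios of KO over WT (with a UMI in at least 10 cells of the higher library), the 15 highest and 15 lowest of members over the Folr2 class, and the 10 most variable. Other genes past 2-fold, and genes of the double-positive comparison outside the lists, were named after their values had been seen. Alternatives were another pseudocount, required sum, depth, cell limits, averaging, gene minimum and sex. A few genes of the lists are not reported here by name.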

Additional observations from a re-analysis of the deposited data

How the results depend on the processing

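With 1 CPM added in place of 10, the log2 ratio of Lyve1 was -2.24 for KO over WT members. It was -6.23 for WT members over the Folr2 class. Lyve1 ratios over the Folr2 class are not to be set against the ratio over double-positive cells given above, which is another class. With 1 CPM added, the genes past 2-fold were 22 higher and 36 lower in KO, and 447 genes were higher in members than in the Folr2 class. A required sum of 10 UMIs gave 11 genes lower in KO and 140 higher than the Folr2 class, and a sum of 3 UMIs a Lyve1 ratio of -5.03 over that class. With the rule applied after thinning to 10000 UMIs, members were 318 in WT and 145 in KO, their share of the quality barcodes with at least 10000 UMIs, not of all quality barcodes, differed by -6.93 points, and the Lyve1 ratios were -1.29 and -4.74. The mean of per-cell CPM gave Lyve1 ratios of -1.51 and -4.66. In male cells the difference of the quality share was -5.61 points and 5 of 6082 genes were higher in KO. In female cells it was -1.03 points, with 21 of 3103 genes higher in KO, and 122 higher and 84 lower than the Folr2 class. A minimum of 20 UMIs gave 22 genes higher in KO. Against double-positive cells 52 genes were higher and 67 lower. Without the 5% of members highest in each gene, 11 genes were lower in KO. Plac8 changed sign without the highest doublet scores (-0.030) and in female cells (-0.24), as did Gpnmb (-0.23) and Ccl8 (0.34) in female cells. The cause of these shifts was not tested. The difference of the share of C1q barcodes ranged from -4.03 points in male to 2.21 points in female cells. No paired analysis was possible because each genotype has 1 library. That also limits all values of KO against WT, as do the 99 KO members.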
